A study of Homo sapiens with 58 samples.

Results

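A set of 10 genes that mark mesenchymal cells and the matrix they build was followed across breast cancer cell lines: VIM, EMP3 and MSN, which act in the cytoskeleton and at the cell membrane, and FN1, FBN1, SPARC, FSTL1, TGFBI, POSTN and LUM, whose products are secreted. Each was represented by the probe set with the highest mean among those that name this gene alone, so that the 10 members stand beside 19798 genes measured in the series. All 10 passed the filter on low values, which kept 14439 genes. The question was which members are present in every line with a mesenchymal character and which only in the fibroblast-like lines HS362T, HS579MG, HS605T and HS739T.

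Cells that lose epithelial junctions and take on a mesenchymal state replace keratin filaments in part by vimentin, and many of them lay down a fibronectin-rich matrix. Fibroblasts go further and build the collagen and microfibril network of the stroma, which carries matricellular proteins that tune adhesion and growth factor signals and small leucine-rich proteoglycans that space collagen fibrils. In breast tumours much of this matrix is made by stromal fibroblasts.

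In the series, messenger RNA of 58 untreated human lines, all labelled breast cancer, was measured at baseline on 1 custom Affymetrix array each. Values are log2 intensities, on which 1 unit is a 2-fold difference, and levels are compared only within a gene. The labels name the lines but give no group, so the groups used here rest on what has been published about each named line. They are 4 fibroblast-like lines, 10 carcinoma lines described as mesenchymal (BT549, HS578T, MDAMB231, MDAMB436, MDAMB157, MB157, HCC38, HCC1395, CAL120 and CAL51), 5 immortalised mammary epithelial lines (MCF102A, MCF12A, HMT3522S1, its derivative HMT3522T42 and SVCT), 10 basal epithelial lines and 16 luminal lines. Outside the fit stood the 3 lines MDAMB435S, M4A4 and NM2C5, reported to come from a melanoma, MT3, reported to come from a colon carcinoma, and 9 lines with no group. All lines were untreated, and no genotype, passage or culture medium was used to set a group. A line called on for a gene had a value above 5.58, the 95th percentile of 616 probe sets for viral sequences.

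Each line was measured 1 time, so p-values measure the spread between lines and not the error of a repeated culture. Lines of common origin were averaged, which turned the 45 lines of the 5 groups into 40 units. Array medians lay between 5.37 and 5.58, and array quality, taken as the spread (interquartile range) of values around the median of each gene, ran over lines from 0.45 to 0.64, the widest being HS362T. The number of arrays limits the precision. A bulk profile cannot tell fewer cells of a type from less RNA per cell.

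The group labels were checked against marker genes. The 4 fibroblast-like lines had 2 to 3 of 10 measured epithelial genes on, with CDH1, ESRP1, RAB25, CLDN4, CLDN7 and GRHL2 off in every one of them, and 9 of 10 fibroblast genes on. Of 6 blood genes 1 to 2 were on there, with PTPRC, CD3E, LYZ and SPI1 off. The 5 immortalised mammary lines had 5 to 10 of 10 epithelial genes on, and 9 of 10 mesenchymal genes on in each. Their mean over the mesenchymal genes had a median of 10.22, against 10.03 in mesenchymal carcinoma lines. In HMT3522T42 CDH1 (5.14) and ESRP1 (3.23) were off and ZEB1 stood at 10.71. By these genes the immortalised lines are partly mesenchymal, but they were not counted among the mesenchymal lines. Among the mesenchymal carcinoma lines, MB157 and HCC38 went against their group: all 10 epithelial genes were on in each, CDH1 stood at 12.77 in MB157 and 12.61 in HCC38, and ZEB1, a repressor of epithelial genes, was at background with 2.87 in MB157 and 4.03 in HCC38. CDH1 was also on in CAL120 (10.66), CAL51 (10.53), MDAMB231 (8.23), MDAMB157 (6.23), BT549 (5.78) and HS578T (5.61). ESRP1 was on in CAL120 too (6.26). In these lines ZEB1 was on, from 9.42 in MDAMB157 to 11.20 in HS578T. HS578T stood close to the fibroblast-like lines, with a mean over the fibroblast genes of 11.30 against 11.65 to 11.94 in those 4 lines. The counts of lines and the 3 comparisons that use mesenchymal carcinoma lines are given with and without MB157, HCC38 and HS578T. Leaving these lines out was chosen after seeing the data, except for HS578T in the comparisons.

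No member was on only in the fibroblast-like lines. A total of 7, VIM, EMP3, MSN, FN1, FBN1, FSTL1 and TGFBI, were on in all 14 lines of the fibroblast-like and mesenchymal carcinoma groups. The threshold lies near the array medians (5.37 to 5.58). The share of all genes on in all 14 lines, or only in the fibroblast-like lines, was not counted. Whether 7 or 0 of 10 is unusual is therefore not known. These 7 were not limited to those groups: each was on in all 5 immortalised mammary lines. VIM, MSN, FN1, FSTL1 and TGFBI were on in all 10 basal epithelial lines. Of the 44 lines outside the 2 groups, from 23 (FBN1) to 40 (FN1) had the member on. The other 3 were on in all 4 fibroblast-like lines and in part of the mesenchymal carcinoma lines: SPARC in 8 of 10, POSTN in 6 of 10 and LUM in 5 of 10. All 3 were also on elsewhere, SPARC in 11, POSTN in 6 and LUM in 9 of the 44 lines outside those 2 groups. Raising the threshold by 1 or by 2 units left 6 and 5 members on in all 14 lines, and averaging the probe sets of a gene left 5, and under each of these the number on only in the fibroblast-like lines was 0. Without MB157 and HCC38, SPARC was on in 6, POSTN in 5 and LUM in 5 of 8 mesenchymal carcinoma lines, and without HS578T in 7, 5 and 4 of 9. The same 7 members stayed on in all lines, and 0 were on only in the fibroblast-like lines, in both cases and with the 3 lines left out together.

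**Figure D1:**
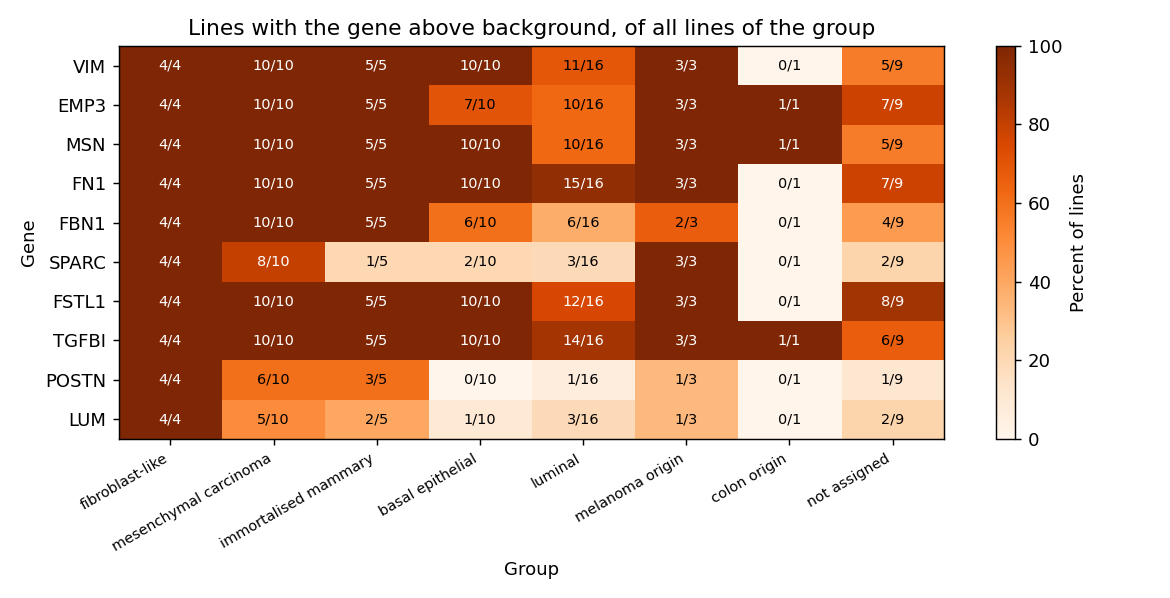
Number of lines in which each of the 10 genes (rows) was above background, of all lines of each group (columns); the colour gives the same as a percent of the lines. The top-to-bottom order follows the roles of the genes, and the fibroblast-like column is full, while SPARC, POSTN and LUM thin out from the mesenchymal carcinoma lines on.

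Counted per line, all 10 members were on in 4 of 4 fibroblast-like lines and in 3 mesenchymal carcinoma lines, HS578T, HCC1395 and MDAMB157. Mesenchymal carcinoma lines had 7 to 10 members on (median 9), immortalised mammary lines 7 to 9 (median 8), basal epithelial lines 5 to 8 (median 7) and luminal lines 3 to 10 (median 5). The luminal line with all 10 was MDAMB453, and the line FR2, which has no group, also had all 10.

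**Figure D2:**
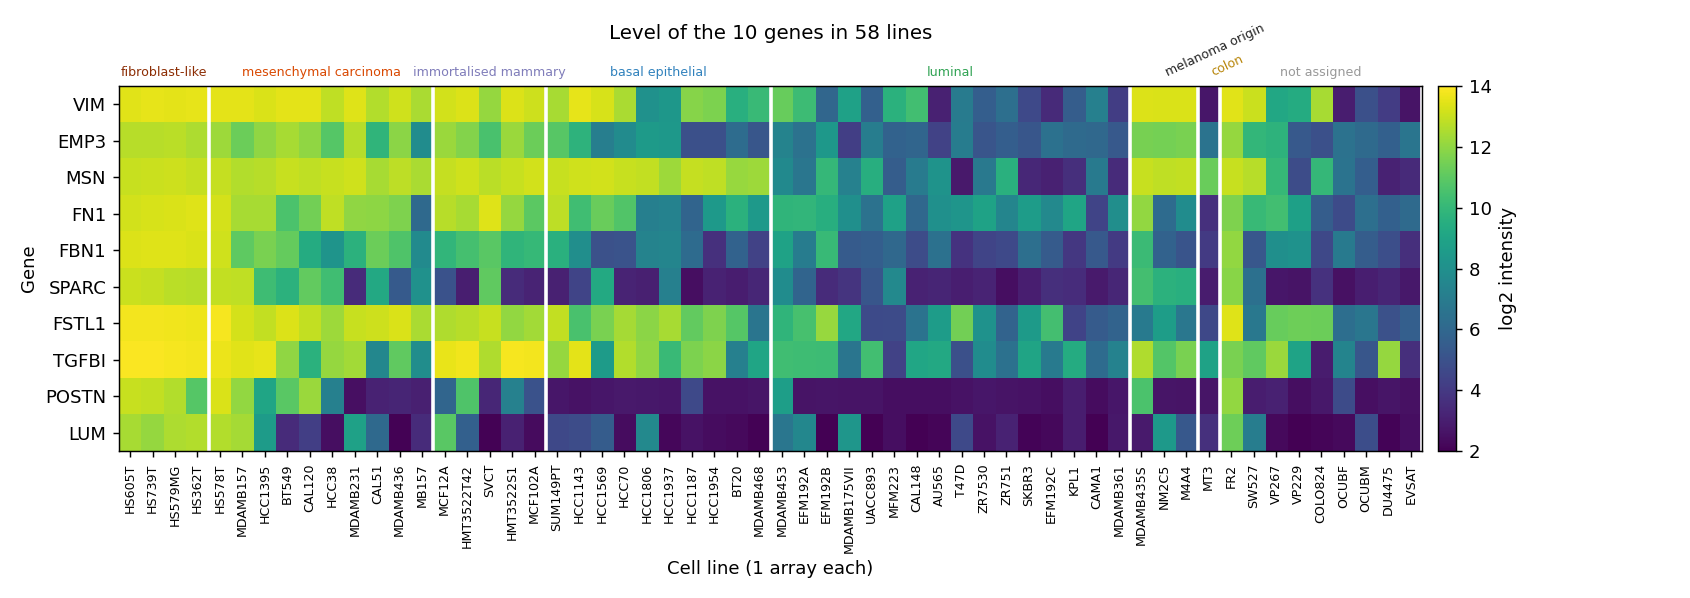
Level of the 10 genes (rows, log2 intensity as colour) in the 58 lines (columns, 1 array each), by group and, within a group, by the mean over the 10 genes. The fibroblast-like lines and HS578T are bright in every row, POSTN and LUM are dark in most basal epithelial and luminal columns, and MSN is bright in the basal epithelial lines too.

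VIM encodes vimentin, the intermediate filament protein of mesenchymal cells. It stood at 13.57 in HS362T, 13.49 in HS579MG, 13.47 in HS605T and 13.54 in HS739T. The mesenchymal carcinoma lines ran from 12.48 in MB157 over a median of 13.39 to 13.53 in MDAMB157, so the 2 groups overlapped. VIM was also on in all 5 immortalised mammary lines (12.12 to 13.39) and in all 10 basal epithelial lines, where it spread from 8.06 in HCC1806 to 13.55 in HCC1143 (median 11.73). Luminal lines lay lowest, from 3.10 in AU565 to 11.20 in MDAMB453 with a median of 6.16, and none of them reached the lowest mesenchymal carcinoma line.

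EMP3 encodes a tetraspan membrane protein of the epithelial membrane protein family. Its level was 12.55 in HS362T, 12.76 in HS579MG, 12.70 in HS605T and 12.73 in HS739T. Mesenchymal carcinoma lines had a median of 11.96, with MB157 lowest at 7.83 and MDAMB231 highest at 12.65. The immortalised mammary lines reached 11.29 in MCF102A, 12.19 in MCF12A, 11.75 in HMT3522T42, 12.19 in HMT3522S1 and 10.56 in SVCT, against a median of 7.45 in basal epithelial lines (4.92 to 10.88) and of 6.0 in luminal lines (4.24 to 8.38). EMP3 thus separated the immortalised from the basal epithelial lines except SVCT, which lay below SUM149PT.

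MSN encodes moesin, which links the actin cortex to the membrane. It was at 12.96 to 13.10 in the fibroblast-like lines, 12.41 to 13.11 in mesenchymal carcinoma lines, 12.77 to 13.19 in immortalised mammary lines and 12.14 to 13.19 in basal epithelial lines. In luminal lines it lay between 2.84 in T47D and 10.01 in EFM192B with a median of 6.90, and 6 of 16 were off. The highest luminal line thus lay below every line of the other groups of the fit, and the ranges of the mesenchymal carcinoma and basal epithelial lines overlapped almost in full.

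FN1 encodes fibronectin, the fibrous glycoprotein that binds integrins. Its level was 13.40 in HS362T, 13.31 in HS579MG, 13.16 in HS605T and 13.29 in HS739T. Mesenchymal carcinoma lines had a median of 11.99 and reached 13.25 in HS578T, while MB157 lay far below the others at 6.12. The immortalised mammary lines had 10.996 in MCF102A, 12.72 in MCF12A, 12.41 in HMT3522T42, 12.12 in HMT3522S1 and 13.39 in SVCT. Basal epithelial lines spread from 5.85 to 12.79 (median 9.09) and luminal lines from 4.48 to 9.91 (median 8.13), so FN1 was on in 54 of 58 lines at graded levels.

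FBN1 encodes fibrillin-1, the core of the microfibrils that carry elastin and latent TGF-beta. It stood at 13.31 in HS362T, 13.41 in HS579MG, 13.35 in HS605T and 13.43 in HS739T. Each of these was above the highest mesenchymal carcinoma line, HS578T with 13.13, and the remaining mesenchymal carcinoma lines lay between 7.75 in MB157 and 11.58 in HCC1395 (median of the 10 lines 10.85). Immortalised mammary lines had 10.06 in MCF102A, 9.92 in MCF12A, 10.48 in HMT3522T42, 9.84 in HMT3522S1 and 10.94 in SVCT, all above the highest basal epithelial line, SUM149PT with 9.61. The medians were 5.98 in basal epithelial and 5.44 in luminal lines, with EFM192B highest among the luminal lines at 10.11.

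SPARC encodes osteonectin, a collagen-binding matricellular protein. It was at 12.72 in HS362T, 12.78 in HS579MG, 13.02 in HS605T and 12.97 in HS739T. HS578T (12.91) and MDAMB157 (12.84) lay within that range, the median of the mesenchymal carcinoma lines was 9.998, and MDAMB231 (3.49) and MDAMB436 (5.40) were off. In the immortalised mammary lines SPARC was off in 4, at 3.19 in MCF102A, 5.01 in MCF12A, 3.001 in HMT3522T42 and 3.47 in HMT3522S1, and at 11.08 in SVCT. It was on in 2 of 10 basal epithelial lines (HCC1569 at 9.28 and HCC1937 at 7.21, median of the group 3.19) and in 3 of 16 luminal lines (MDAMB453, MFM223 and EFM192A, median of the group 3.40). MDAMB231 and MDAMB436 thus had VIM, FN1 and FSTL1 on with SPARC off.

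FSTL1 encodes a secreted follistatin-like glycoprotein that binds ligands of the TGF-beta family. It was at 13.70 to 13.79 in fibroblast-like lines, 12.22 to 13.85 in mesenchymal carcinoma lines and 12.07 to 12.98 in immortalised mammary lines. Basal epithelial lines lay between 10.56 and 12.91 except MDAMB468 at 6.66, and luminal lines between 4.41 in KPL1 and 12.13 in EFM192B (median 8.33). The lowest mesenchymal carcinoma line, HCC38 with 12.22, was above every luminal line by a narrow margin.

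TGFBI encodes a fasciclin-domain matrix protein that binds collagen and integrins. Its level was 13.80 in HS362T, 13.82 in HS579MG, 13.95 in HS605T and 13.93 in HS739T, above all mesenchymal carcinoma lines, which ran from 7.54 in CAL51 over a median of 12.07 to 13.64 in HS578T. Immortalised mammary lines had 13.78 in MCF102A, 13.58 in MCF12A, 13.76 in HMT3522T42, 13.82 in HMT3522S1 and 12.59 in SVCT. Basal epithelial lines had a median of 11.77 (7.24 to 13.51) and luminal lines of 8.41 (4.36 to 10.36). The median of TGFBI was thus higher in the immortalised lines than in the mesenchymal carcinoma lines.

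POSTN encodes periostin, a fasciclin-domain protein of fibroblast matrix that takes part in collagen crosslinking. It was at 10.83 in HS362T, 12.60 in HS579MG, 12.97 in HS605T and 12.89 in HS739T. In mesenchymal carcinoma lines it split widely: HS578T had 13.33, CAL120 12.22, MDAMB157 12.08, BT549 10.92, HCC1395 9.05 and HCC38 7.24, whereas MDAMB436 (3.24), CAL51 (3.16), MB157 (3.07) and MDAMB231 (2.51) were off. Immortalised mammary lines had 5.002 in MCF102A, 5.92 in MCF12A, 10.71 in HMT3522T42, 7.25 in HMT3522S1 and 3.28 in SVCT. POSTN was off in all 10 basal epithelial lines (2.58 to 4.66) and in 15 of 16 luminal lines, the exception being MDAMB453 at 8.72.

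LUM encodes lumican, a small leucine-rich proteoglycan that regulates collagen fibrils. It was at 12.61 in HS362T, 12.52 in HS579MG, 12.43 in HS605T and 12.09 in HS739T. HS578T (12.63) and MDAMB157 (12.41) matched them, MDAMB231 had 8.88, HCC1395 8.58 and CAL51 6.08, and the other 5 mesenchymal carcinoma lines were off, down to 2.06 in MDAMB436. Among immortalised mammary lines LUM was 10.92 in MCF12A and 5.66 in HMT3522T42, and 2.34 in MCF102A, 3.09 in HMT3522S1 and 2.08 in SVCT. It was on in 1 basal epithelial line (HCC1806, 7.64) and in the 3 luminal lines MDAMB175VII (8.30), EFM192A (7.55) and MDAMB453 (6.70). POSTN and LUM were both on in HS578T, MDAMB157 and HCC1395 and both off in MDAMB436 and MB157. BT549, CAL120 and HCC38 had POSTN on with LUM off, and MDAMB231 and CAL51 had LUM on with POSTN off.

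**Figure D3:**
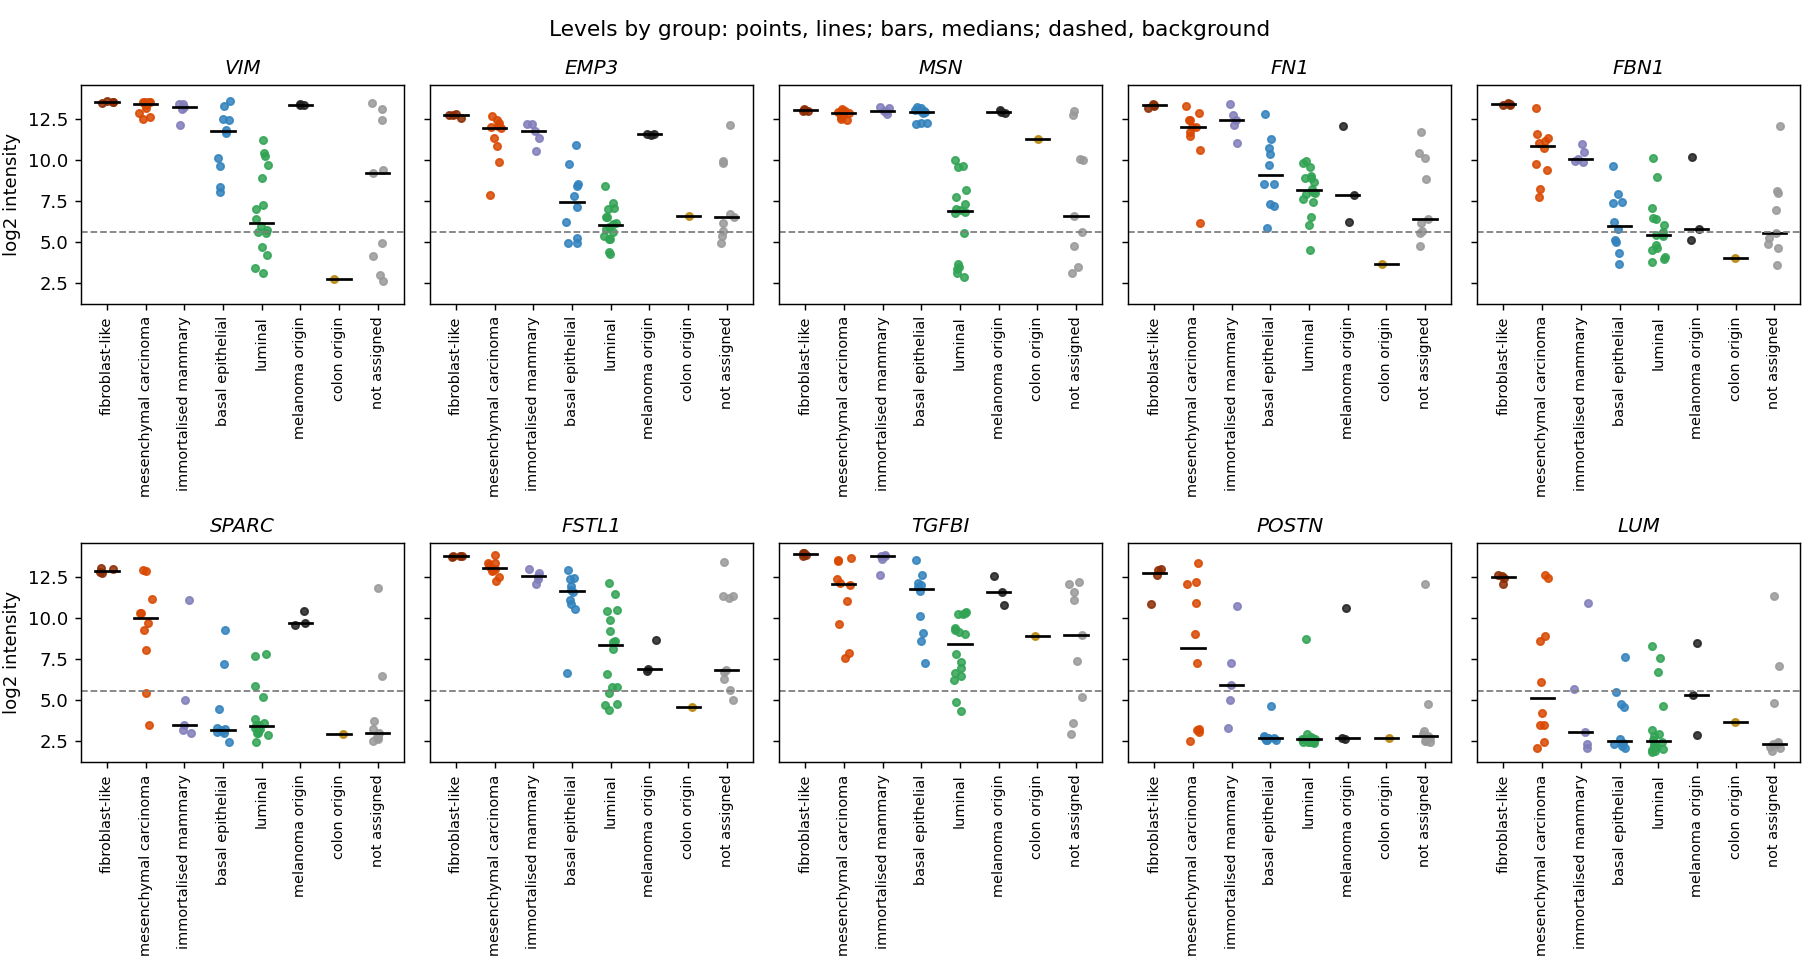
Level of each of the 10 genes (panels, log2 intensity) in every line (points) by group, with the median of each group as a bar and the background of 5.58 as a dashed line. The fibroblast-like points form a tight cluster in every panel but POSTN, where HS362T sits lowest, while the mesenchymal carcinoma points of SPARC, POSTN and LUM span the whole axis.

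Fibroblast-like lines were then set against mesenchymal carcinoma lines (4 against 9 units) in one limma fit over the 5 groups, with Benjamini-Hochberg adjustment over all 14439 genes. Of the 10 members, LUM, POSTN and FBN1, so 3, were higher and none was lower; over all genes the fit called 6.33% higher, 9.98% lower and 16.3% in either direction. LUM differed by 6.15 ± 1.49 (SE, adjusted p = 0.00362 by limma), POSTN by 4.63 ± 1.36 (adjusted p = 0.0161 by limma) and FBN1 by 2.86 ± 0.86 (adjusted p = 0.0185 by limma). SPARC, 3.65 ± 1.37 higher, did not pass (adjusted p = 0.0621 by limma), nor did TGFBI (2.48 ± 1.05, adjusted p = 0.106 by limma), FN1 (1.57 ± 0.89, adjusted p = 0.244 by limma), EMP3, FSTL1, VIM or MSN. The median difference was 2.02 over the members and -0.11 over all genes. Since POSTN was off in 4 and LUM in 5 of the 10 mesenchymal carcinoma lines, the sizes of their differences include values below background; with those set to 5.58 they were 3.62 for POSTN and 4.91 for LUM.

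The call of LUM held in every alternative tried, whereas those of FBN1 and POSTN lay close to the threshold. With array quality as a term, FBN1 (adjusted p = 0.105 by limma) and POSTN (adjusted p = 0.0675 by limma) no longer passed, and both were also lost without HS739T and with HS605T and HS739T taken as 1 unit. FBN1 was lost without HS362T (adjusted p = 0.0504 by limma), and POSTN without HS605T (adjusted p = 0.0572 by limma) and in a fit of only the 2 groups (adjusted p = 0.122 by limma). HS605T and HS739T are the closest pair of the group (r = 0.976 over 14439 genes, against 0.981 for M4A4 and NM2C5, which derive from one line), and whether they are independent was not tested. Without MB157 and HCC38, POSTN was 4.01 higher (adjusted p = 0.0566 by limma), LUM 5.12 (adjusted p = 0.0224 by limma) and FBN1 2.37 (adjusted p = 0.0481 by limma). Without HS578T, SPARC passed as well (4.11 higher, adjusted p = 0.0304 by limma). Over single lines, every fibroblast-like value lay above every mesenchymal carcinoma value for TGFBI and FBN1, which held for 3.77% of all genes.

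FN1 depended on the probe set. The one used was on in 54 lines, and the other two in 18 and 19. With the second probe set the fibroblast-like lines were 4.02 higher (adjusted p = 0.000618 by limma), and with the mean of the probe sets 3.11 higher (adjusted p = 0.00597 by limma). The other FN1 probe sets correlated with the one used at r = 0.81 and 0.88 over the lines, and which transcripts each of them reads was not tested. For FBN1 the counts of lines depended on the probe set too. The one used was on in 37 lines, and the others in 29, 22 and 14. With the mean of the probe sets FN1 and FBN1 were both off in MB157. Outside the fibroblast-like and mesenchymal carcinoma groups, FBN1 was then on in 12 lines instead of 23, and FN1 in 17 instead of 40.

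Mesenchymal carcinoma lines against basal epithelial lines (9 against 10 units) gave 5 members higher, FN1, FBN1, EMP3, SPARC and POSTN, against 1.89% of all genes called higher, 2.51% lower and 4.4% in either direction. POSTN passed with an adjusted p of 0.00419 by limma; as all 10 basal epithelial lines were off, only a bound can be given: the measured mean of 7.69 in mesenchymal carcinoma lines was at least 2.11 log2 units above the background of 5.58. SPARC, off in 8 of 10 basal epithelial lines, passed with an adjusted p of 0.00337 by limma, at a difference of 4.99 ± 1.05 (SE) as measured and 3.36 with values below background set to 5.58. FBN1 differed by 4.27 ± 0.66 (adjusted p = 7.82e-05 by limma), EMP3 by 4.12 ± 0.59 (adjusted p = 3.20e-05 by limma) and FN1 by 2.51 ± 0.68 (adjusted p = 0.0239 by limma). FBN1 was off in 4 and EMP3 in 3 of 10 basal epithelial lines. With those values set to 5.58 the differences were 3.85 for FBN1 and 3.95 for EMP3. VIM, 2.08 ± 0.75 higher, did not pass (adjusted p = 0.116 by limma), and MSN differed by 0.05 ± 0.56. No member separated the 2 groups without overlap, as only 0.00693% of all genes did. Without MB157 and HCC38 the same 5 members passed, with FBN1 at 4.76 and EMP3 at 4.42, and without HS578T all of them but FN1 (2.32, adjusted p = 0.0599 by limma). In a fit of only these 2 groups, FN1 (adjusted p = 0.108 by limma) and POSTN (adjusted p = 0.0561 by limma) did not pass.

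The 250 bases before the RefSeq start listed first for each of those 5 genes (GRCh38.p14, 5′ to 3′ on the strand of the gene) are shown. These are the members that differed between mesenchymal and basal epithelial carcinoma lines. The windows lie at chr2:215436069-215436318 (minus strand), chr15:48644971-48645220 (minus strand), chr19:48325302-48325551 (plus strand), chr5:151686916-151687165 (minus strand) and chr13:37598769-37599018 (minus strand). The FBN1 window lies inside the RefSeq span of the gene, which reaches 48645709, so it does not precede the outermost start. Capitals mark matches on either strand to the TATA box TATAAA, the GC box GGGCGG, the ZEB and SNAIL type E box CAGGTG, the AP-1 site TGACTCA and the TEAD site GGAATG.
FN1: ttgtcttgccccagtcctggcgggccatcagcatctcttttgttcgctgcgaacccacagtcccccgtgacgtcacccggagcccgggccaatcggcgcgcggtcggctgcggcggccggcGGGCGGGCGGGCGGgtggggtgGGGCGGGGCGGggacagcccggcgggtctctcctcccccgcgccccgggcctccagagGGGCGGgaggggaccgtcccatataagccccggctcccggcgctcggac
FBN1: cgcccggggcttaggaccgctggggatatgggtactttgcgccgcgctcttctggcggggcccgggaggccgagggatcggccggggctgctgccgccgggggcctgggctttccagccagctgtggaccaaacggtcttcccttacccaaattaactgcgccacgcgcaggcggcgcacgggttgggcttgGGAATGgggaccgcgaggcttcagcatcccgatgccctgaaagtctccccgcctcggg
EMP3: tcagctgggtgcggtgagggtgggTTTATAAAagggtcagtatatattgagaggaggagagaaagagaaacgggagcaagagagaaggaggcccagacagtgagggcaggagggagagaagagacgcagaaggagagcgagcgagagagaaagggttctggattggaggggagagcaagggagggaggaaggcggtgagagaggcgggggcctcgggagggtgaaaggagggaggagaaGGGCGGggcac
SPARC: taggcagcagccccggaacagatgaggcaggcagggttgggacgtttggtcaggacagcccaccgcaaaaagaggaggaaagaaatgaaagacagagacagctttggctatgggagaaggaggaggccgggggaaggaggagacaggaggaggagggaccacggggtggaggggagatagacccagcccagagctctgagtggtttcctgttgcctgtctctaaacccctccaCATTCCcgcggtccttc
POSTN: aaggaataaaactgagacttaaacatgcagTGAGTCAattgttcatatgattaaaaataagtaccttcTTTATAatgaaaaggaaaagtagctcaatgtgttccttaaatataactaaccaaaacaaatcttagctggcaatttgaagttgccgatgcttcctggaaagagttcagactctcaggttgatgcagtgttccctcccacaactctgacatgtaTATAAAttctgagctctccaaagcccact

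These starts were unlike each other in base composition. EMP3 has a further RefSeq start, with the window chr19:48325749-48325998, which is not printed. The ratio of observed to expected CpG was 0.88 for FN1, 0.83 for FBN1, 0.73 for EMP3 (0.18 at its further start), 0.34 for SPARC and 0.12 for POSTN, where the 34943 promoters of the table had quartiles of 0.22 and 0.84 around a median of 0.56. TATAAA was found at the first start of EMP3, where a match on each strand overlaps, and in POSTN, and it is in 10.8% of all promoters. GGGCGG, in 42.5% of all promoters, occurred 6 times in FN1 with matches that overlap, 1 time at the first start of EMP3 and not in FBN1, SPARC or POSTN. The further start of EMP3 held neither of these motifs. TGACTCA, read as TGAGTCA on the other strand and in 4.22% of promoters, occurred 1 time in POSTN, and GGAATG, in 11.9%, 1 time each in FBN1 and SPARC. CAGGTG, in 17.5% of promoters, was in none of the 11 windows of the 9 members with an entry. LUM had no entry.

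Against luminal lines (9 against 13 units), 9 of 10 members were higher in mesenchymal carcinoma lines, all except LUM, where 11.1% of all genes were called higher, 13.8% lower and 24.9% in either direction. MSN differed by 6.45 ± 0.53 (SE, adjusted p = 2.45e-11 by limma), EMP3 by 5.53 ± 0.56 (adjusted p = 3.20e-09 by limma) and VIM by 6.11 ± 0.71 (adjusted p = 6.18e-08 by limma). FSTL1 was 5.69, FBN1 5.06, FN1 3.82 and TGFBI 3.61 higher. All 7 sizes include luminal values below background. FBN1 was off in 10, MSN and EMP3 in 6, VIM in 5, FSTL1 in 4, TGFBI in 2 and FN1 in 1 of 16 luminal lines. With those set to 5.58 the differences were 5.77 for MSN, 5.31 for EMP3, 5.82 for VIM and 5.46 for FSTL1. For FBN1 the difference was then 4.42, for FN1 3.74 and for TGFBI 3.47. POSTN was off in 15 and SPARC in 13 of 16 luminal lines, and with values below background set to 5.58 their differences were 2.88 for POSTN (adjusted p = 0.000590 by limma on the measured values) and 3.55 for SPARC (adjusted p = 0.000190 by limma on the measured values). LUM was 2.76 ± 1.08 higher as measured (adjusted p = 0.0561 by limma). It passed without MB157 and HCC38 (3.80, adjusted p = 0.0131 by limma) or without the luminal lines EFM192A and MDAMB453 (3.18, adjusted p = 0.0291 by limma). These sizes include values below background, as LUM was off in 13 of 16 luminal and 5 of 10 mesenchymal carcinoma lines. With those set to 5.58 its difference over all units was 1.57. Without HS578T the same 9 members passed. VIM, FSTL1 and MSN separated every mesenchymal carcinoma line from every luminal line, as 0.326% of all genes did.

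Immortalised mammary lines against basal epithelial lines (4 against 10 units) gave 2 members higher, EMP3 and FBN1, beside 0.866% of all genes called higher, 0.665% lower and 1.53% in either direction. EMP3 differed by 4.13 ± 0.77 (SE, adjusted p = 0.00268 by limma) and FBN1 by 4.03 ± 0.84 (adjusted p = 0.00789 by limma). FN1, 3.13 ± 0.87 higher, had an adjusted p of 0.0540 by limma, and TGFBI, 2.55 ± 1.04 higher, one of 0.236 by limma. In a fit of only these 2 groups neither EMP3 (adjusted p = 0.115 by limma) nor FBN1 (adjusted p = 0.0830 by limma) passed. FBN1 was the only member whose groups did not overlap, which held for 0.471% of all genes.

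**Figure D4:**
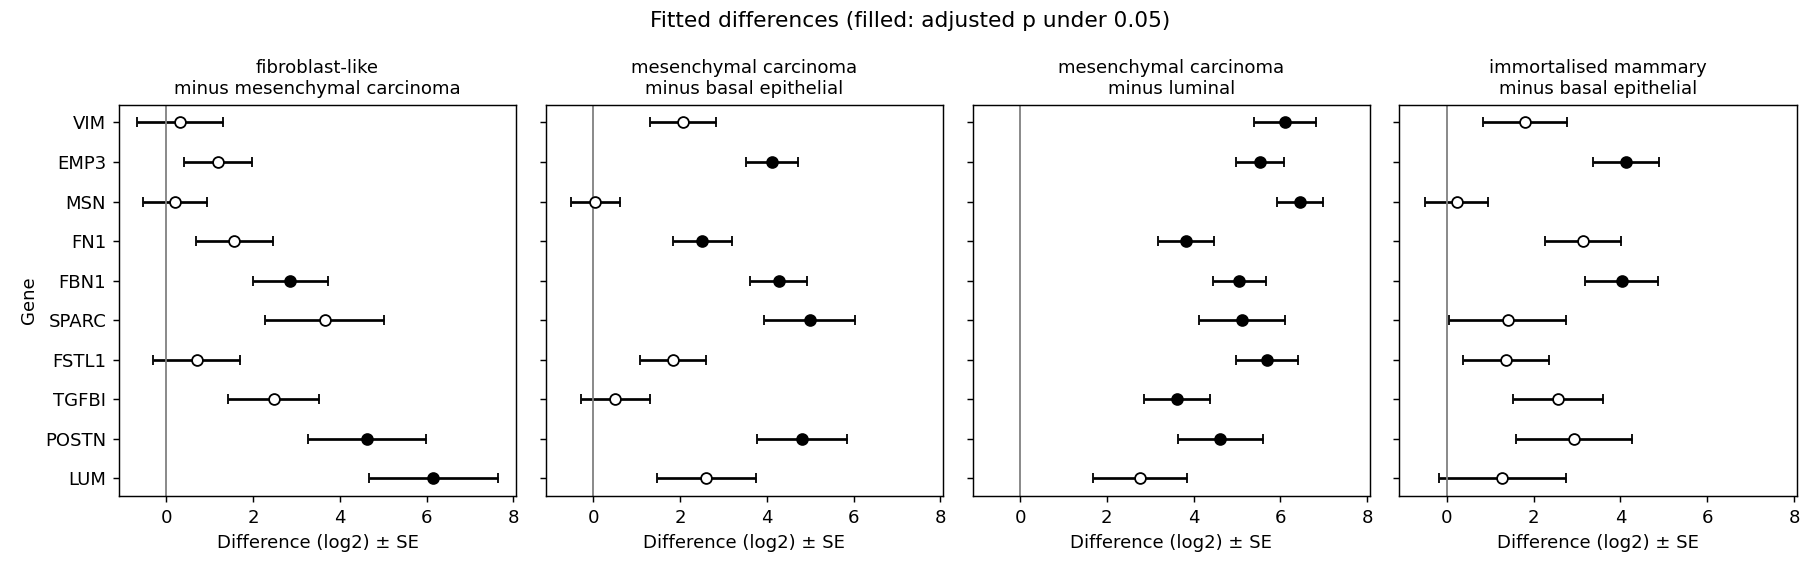
Fitted differences of the 10 genes (rows) in 4 comparisons (panels), in log2 units with the SE as bars; filled points passed an adjusted p under 0.05. LUM and POSTN lie farthest right for fibroblast-like minus mesenchymal carcinoma lines, EMP3 and FBN1 are filled in both comparisons against basal epithelial lines, and MSN lies near 0 in all panels but the one against luminal lines.

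The first comparison shares the mesenchymal carcinoma lines with those against basal epithelial and luminal lines, and the basal epithelial lines serve 2 comparisons. Side by side, FBN1 was 2.86 higher in fibroblast-like than in mesenchymal carcinoma lines, and 4.27 higher in these than in basal epithelial lines. For EMP3 the values were 1.19 (not called) and 4.12, and for LUM 6.15 and 2.61 (adjusted p = 0.220 by limma, not called).

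Some lines of common origin were far apart in several members. MDAMB157 and MB157 are reported to come from one donor, yet POSTN was 12.08 in MDAMB157 and 3.07 in MB157. LUM was 12.41 in MDAMB157 and 3.46 in MB157, FN1 12.44 in MDAMB157 and 6.12 in MB157, and TGFBI 13.46 in MDAMB157 and 7.88 in MB157. POSTN and LUM were off in MB157, so their differences are at least 6.49 and 6.82, counted from the background. SPARC differed by 4.78, EMP3 by 3.46 (11.29 in MDAMB157 and 7.83 in MB157) and FBN1 by 3.27, and the other members by less: VIM by 1.05, FSTL1 by 0.76 and MSN by 0.17. The 2 profiles correlated at r = 0.857 and 3590 genes were over 1 unit apart. The other pairs of reported common origin correlated at 0.895 (VP267 and VP229) to 0.981 (M4A4 and NM2C5). MB157 was as close to HCC38 (0.858) as to MDAMB157. Whether both arrays hold cells of one donor was not tested, and the fit averaged them to 1 unit.

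In the tumour-forming derivative HMT3522T42 POSTN stood at 10.71, against 7.25 in its parent HMT3522S1, while the other 9 members differed by at most 2.57 (LUM). AU565 and SKBR3, which share a donor, differed in MSN (8.18 in AU565 and 3.33 in SKBR3) and by at most 1.57 in the other members. The 3 lines of the EFM192 family were unlike each other: VIM was 10.24 in EFM192A, 5.94 in EFM192B and 3.42 in EFM192C, MSN 6.73 in EFM192A, 10.01 in EFM192B and 3.12 in EFM192C, and LUM 7.55 in EFM192A, 1.85 in EFM192B and 2.26 in EFM192C. MDAMB435S had POSTN at 10.59, FN1 at 12.07 and FBN1 at 10.18, against POSTN at 2.65, FN1 at 7.82 and FBN1 at 5.11 in M4A4 and POSTN at 2.67, FN1 at 6.22 and FBN1 at 5.76 in NM2C5, and its LUM was lowest of the 3 with 2.85. VP267 and VP229, also reported to share a donor and without a group here, differed most in MSN (10.04 in VP267 and 4.77, off, in VP229) and EMP3 (9.78 in VP267 and 5.34, off, in VP229). These are single arrays, with no test of any pair.

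**Figure D5:**
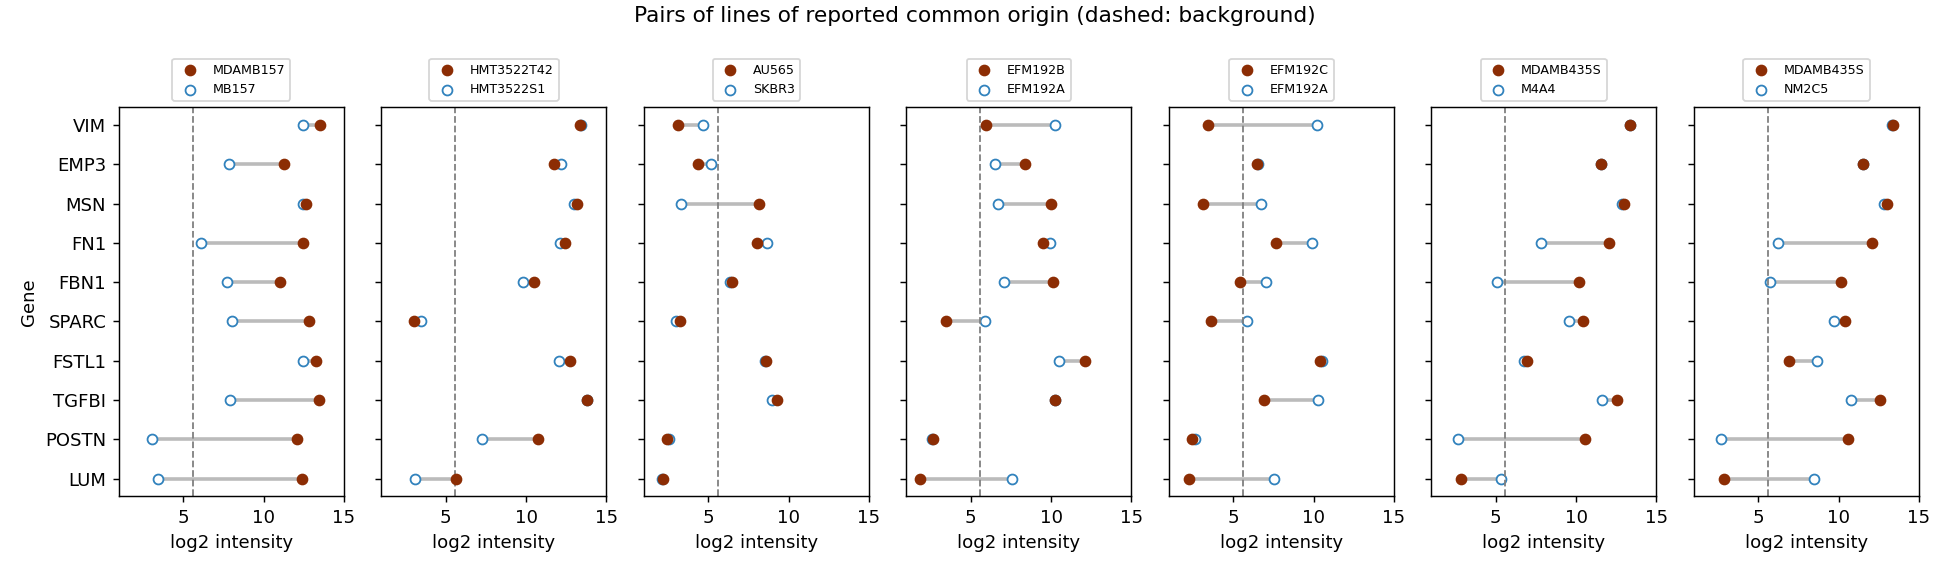
Level of the 10 genes (rows, log2 intensity) in 7 pairs of lines reported to share an origin, the first-named line filled and the other open, with the background of 5.58 dashed. POSTN, LUM, FN1 and TGFBI are far apart between MDAMB157 and MB157, POSTN, FN1 and FBN1 between MDAMB435S and its 2 relatives, and MSN between AU565 and SKBR3.

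Over all 50 units the 45 pairs of members correlated positively, with Pearson r from 0.40 (MSN with LUM) to 0.87 (EMP3 with FBN1) and a median of 0.66. These points share the contrast between luminal and other lines. Within the 9 mesenchymal carcinoma units the median was 0.29, and the closest pairs were FSTL1 with FBN1 (0.86), VIM with EMP3 (0.85) and SPARC with POSTN (0.82). Within the 13 luminal units the median was 0.31, and within the 10 basal epithelial units 0.20, where EMP3 with FBN1 kept 0.86.

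The genes most like each member over the 50 units, by Pearson r among all detected genes, were as follows. VIM was followed most closely by KIRREL1 (0.85), SERPINE2 and ETS1, and MSN by P3H2 (0.86), KIRREL1 and ETS1. EMP3 was nearest to ZEB1 (0.89), AXL and NEXN, and FBN1 to NEXN (0.89), ZEB1 and LINC01279. FN1 had TPM2 (0.81), AXL and LOXL2, SPARC had BNC2 (0.84), COL1A2 and DDR2, and FSTL1 had GLIPR1 (0.85), CAVIN1 and COL12A1. TGFBI was nearest to INHBA (0.79), SH3BGRL3 and GLIPR1. POSTN was nearest to COL1A2 (0.89), PDE1C and COL5A2, and LUM to COL5A3 (0.84), DCN and PDGFRB, so collagen genes were among the 3 nearest of SPARC, FSTL1, POSTN and LUM.

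Other genes of the same kinds were counted in the same fit, in which 6.33% of all genes were higher and 9.98% lower in fibroblast-like than in mesenchymal carcinoma lines, with a median change of -0.11. Of 27 other matrix glycoproteins, 14 were higher in fibroblast-like than in mesenchymal carcinoma lines and none lower, led by MFAP5 (6.91) and MFAP4 (5.99). The products of these 2 genes sit on the microfibrils whose core FBN1 encodes. Of 6 other small leucine-rich proteoglycans tested, 5 were higher there, DCN by 7.14 and FMOD by 5.18 the most. The mesenchymal carcinoma lines had 0 to 3 of the 7 measured genes of this list on, and FMOD was off in all 10 lines. The sizes of these differences therefore include values below background. Of 12 matrix crosslinking and processing genes 6 were higher in fibroblast-like lines, among them ADAMTSL1 (4.25) and LOX (3.69). Of 9 fibroblast marker genes 8 were higher, with THY1 at 5.85 and PDGFRA at 5.58. Gene families of single members gave few calls in this comparison. Of 8 genes of the SPARC and follistatin-like family 2 were higher, FST by 3.40 and FSTL3 by 1.78 (median of the list -0.12), and of 2 genes of the EMP family 0 were called. Of 3 relatives of MSN, EZR was lower (-0.74), and of 4 intermediate filament genes related to VIM, SYNM was lower (-2.68, median of the list -0.51), with 0 higher in either list. Of 10 matrix receptors 3 were higher, ITGA5 (2.41), ITGB5 (2.09) and ITGAV (0.57). Mesenchymal carcinoma lines had 3 of the 27 matrix glycoproteins, FBN2, IGFBP7 and EFEMP2, above basal epithelial lines, and 13 above luminal lines. Over all genes 1.89% were higher in the former comparison and 11.1% in the latter.

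Markers of cell state were counted in all 4 comparisons. Over all genes, 6.33% were higher and 9.98% lower in fibroblast-like than in mesenchymal carcinoma lines. In mesenchymal carcinoma lines 1.89% were higher and 2.51% lower than in basal epithelial lines, and 11.1% higher and 13.8% lower than in luminal lines. In immortalised mammary lines 0.866% were higher and 0.665% lower than in basal epithelial lines. Of 9 mesenchymal genes 2 were higher in fibroblast-like than in mesenchymal carcinoma lines, 5 in mesenchymal carcinoma than in basal epithelial lines (ZEB1 by 5.70) and 8 in mesenchymal carcinoma than in luminal lines (CAV1 by 7.66). Of 10 epithelial genes 8 were lower in mesenchymal carcinoma than in basal epithelial lines, ESRP1 by the most (-6.88), all 10 in mesenchymal carcinoma than in luminal lines, and 2 in fibroblast-like than in mesenchymal carcinoma lines (EPCAM and KRT18). Between immortalised mammary and basal epithelial lines 1 of the 9 mesenchymal genes was called (ZEB1, 4.97 higher) and 0 of the 10 epithelial genes. ZEB1 was off in the basal epithelial lines except HCC1143. ESRP1 was off in the mesenchymal carcinoma lines except HCC38, MB157 and CAL120. The sizes given for ZEB1 and ESRP1 therefore include values below background. The mean level over the fibroblast genes ran from 11.65 to 11.94 in fibroblast-like lines, against 5.87 to 11.30 in mesenchymal carcinoma lines. The part that other cells in a culture have in the members' levels was not tested.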

How the data were processed

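Total RNA of the 58 lines was amplified and hybridised to 1 array per line, per the labels. The authors ran RMA in Affymetrix Power Tools and deposited log2 intensities, per the submitters' processing notes, with no version; whether all arrays were normalized together is not given in the sources used here. Of 52377 probe sets, 35184 name 1 gene and were used, 374 name several and 16819 none. The probe set with the highest mean stood for each of 19798 genes, and 14439 genes above 5.58 in at least 3 of 50 units were tested.

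Groups of named lines and lists of genes were written from published knowledge, and members and lists were chosen with earlier results of these data known. limma 3.58.1 in R 4.3.3 (trend and robust) was fitted to the 40 units of the 5 groups, with an adjusted p threshold of 0.05. Tested on simulated data for fibroblast-like against mesenchymal carcinoma lines, it recovered 70 of 100 genes planted at 2 log2 units and 93 of 100 at 4. It called 9 unchanged genes, where the 14439 genes include the planted ones. Each simulated gene had the same spread in every group. Measured spreads differed (SD of VIM 0.045 in fibroblast-like and 2.56 in luminal lines), so the simulation cannot show how the fit does with unequal spreads. Named genes were the members, the 3 genes most like each, and the 2 highest and 2 lowest called changes of each list. Promoters came from RefSeq GRCh38.p14, where 9 of 10 members matched. The alternatives were other probe set choices, filters, units, thresholds, normalization, eBayes settings and array quality as a term, and lines left out; some of the lines left out, the joined fibroblast-like pair and the second probe set of FN1 and FBN1 were chosen after seeing the data, as was setting values below background to it.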

Additional observations from a re-analysis of the deposited data

Results flagged for a closer look

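In groups of 4 to 10 lines, 40 sets of values were tested for a line that stands apart from the rest of its group. By Dixon's criterion 6 did. For independent lines chance alone gives about 1 in 20. Lines of common origin were not averaged here, so HMT3522T42 and HMT3522S1 counted as separate lines, as did MDAMB157 and MB157. The members also correlate, so the 6 cannot be set against that rate. Among the immortalised mammary lines SVCT stood apart in 3 members, low in VIM (12.12) and TGFBI (12.59) and high in SPARC (11.08). MB157 was low in FN1 (6.12) among the mesenchymal carcinoma lines. Among basal epithelial lines MDAMB468 was low in FSTL1 (6.66), and HCC1187 was high in POSTN (4.66), a value still below background.

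Lines outside the comparisons had 15 values above every basal epithelial and luminal line. FR2, which has no group, gave 6 of them, with SPARC at 11.85, FSTL1 at 13.42, EMP3 at 12.11, FBN1 at 12.07, POSTN at 12.08 and LUM at 11.35. SPARC was 10.43 in MDAMB435S, 9.55 in M4A4 and 9.70 in NM2C5, and EMP3 was 11.54 in MDAMB435S, 11.58 in M4A4 and 11.51 in NM2C5. MDAMB435S also had FBN1 at 10.18 and POSTN at 10.59, and NM2C5 had LUM at 8.48. The cause was not tested for any of these values.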

How the results depend on the processing

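No paired analysis was possible because the labels give the lines no shared replicate numbers and each line was measured 1 time. Leaving out probe sets marked for cross-hybridisation changed nothing to compute, since 0 of the single-gene probe sets carry that mark. Of 1000 values of single members under 25 alternatives and 4 comparisons, 968 kept direction and side of the threshold, 17 lost their call, 15 gained one and 0 changed sign. The number of members on in all 14 mesenchymal lines was 7, and between 5 and 7 under other thresholds and probe set choices.

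For fibroblast-like against mesenchymal carcinoma lines, 2355 genes were called. Leaving out 1 fibroblast-like line gave 1414 to 1778 genes and 1 to 3 members (1414 without HS362T, 1537 without HS605T and 1562 without HS739T), and leaving out 1 immortalised line 2317 to 2349 genes and 3 to 4 members. HS605T and HS739T as 1 unit, chosen after seeing the data, gave 1535 genes and 1 member, and array quality as a term 1 member. SPARC passed without SVCT (adjusted p = 0.0380 by limma), and FSTL1 in the fit of only the 2 groups (adjusted p = 0.0418 by limma).

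For mesenchymal carcinoma against basal epithelial lines, 636 genes were called, 415 without HS578T, 1014 without MB157 and HCC38 (chosen after seeing the data), and 205 genes and 3 members in a fit of only the 2 groups. FN1 lost its call without HS578T (adjusted p = 0.0599 by limma), without HCC38 and CAL51 (adjusted p = 0.0556 by limma) and with all lines as units (adjusted p = 0.0625 by limma). Without HS578T 4 members passed, and without MB157, chosen after seeing the data, 771 genes and 5 members. Leaving out 1 fibroblast-like or immortalised line, which enter only through the shared spread, gave 592 to 645 genes and 5 members. Against luminal lines, 3596 genes were called, 2206 with a difference of at least 1, 3105 genes and 9 members without HS578T, 3813 genes and 10 members without MB157, and 3494 to 3595 genes and 9 to 10 members without 1 fibroblast-like or immortalised line.

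For immortalised mammary against basal epithelial lines, 221 genes were called, 500 with all lines as units, 133 with array quality as a term, and 33 genes and 0 members in a fit of only the 2 groups. Leaving out 1 immortalised line gave 75 to 339 genes (75 without MCF102A, 124 without MCF12A and 339 without SVCT), and 1 fibroblast-like line 191 to 202, with 2 members each time. The cause of these shifts was not tested. A single array per line sets the limit on what these values can show.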
